A study of Mus musculus with 12 samples.

Results

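Impact is an imprinted mouse gene, and its CpG methylation was described here in the left ventricle of 12 FVB/N offspring at 3 weeks of age. Its sites were chosen by position, as every CpG site of the deposited table inside Impact or within 50 kb of it, which gave 35 of 421177 sites. Impact itself, and the bounds of its 16 core sites, were picked from these data for their difference between the maternal diets. Its levels by diet are therefore a description, from which nothing is inferred. At Impact, inference is limited to sex, the diet-by-sex interaction and relations within a diet.

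The mothers, virgin FVB/NJ females, were given food high in fat (HFD) when they were 6 weeks old, or the regular diet (RD), and stayed on it. They were mated after 8 weeks on the diet, in both groups with a male fed RD. Hearts came from 3 daughters and 3 sons of HFD mothers and from 4 daughters and 2 sons of RD mothers. All were wild type and newly weaned. How many mothers they came from is not given in the labels, so the p-values below measure the spread between these mice, some of which may be littermates.

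In reduced representation bisulfite sequencing (RRBS) the enzyme MspI cuts DNA at CCGG, and the share of reads that keep a cytosine after bisulfite gives the methylation level of a CpG. The table holds percentages and no read numbers, which leaves the depth of a single value unknown. The 12 samples had values at 385299 to 417081 sites. Mean methylation of the X chromosome was 53.0 to 55.3% in the samples labelled female and 46.4 to 46.9% in those labelled male. By the labels, HFD samples hold library numbers 2 to 8 and RD samples 9 to 14, so the order of libraries cannot be told apart from the diet.

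In an imprinted gene the maternal and the paternal copy carry different methylation from the germ line onward, and only 1 copy is expressed. The maternal copy of Impact acquires methylation of a CpG-rich region in its first intron during oocyte growth, and the paternal copy is the expressed one. A region with 1 methylated and 1 unmethylated copy has a level of 50% in bulk DNA. The IMPACT protein binds GCN1 and restrains the kinase GCN2, which phosphorylates the translation factor eIF2 alpha when amino acids run short. The reads of these inbred mice were not assigned to a parental copy. In bulk ventricle, a change in the mix of cell types and a change within the cells cannot be told apart.

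The RefSeq gene table (GRCm38.p6, the assembly that the name mm10 in the submitters' processing notes stands for) places Impact (gene ID 16210) on chromosome 18 at 12954690 to 12992950. Of the 35 sites, 25 lay inside the gene. They formed 3 groups. At the left end were 2 sites at positions 12955818 and 12955858. The core of 16 sites spanned 252 bp, from 18529 bp after the left end of the gene to 19480 bp before its right end, and another site followed at 12973506. Toward the right end were 6 sites from 12989903 to 12989948, which is 3002 bp before the end of the annotated gene. The table gives no exons, so exon, intron and UTR were not assigned. Values were complete in all 12 samples at 29 of the 35 sites, the core among them, and 9 values were missing at the other 6 sites.

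The core was near or below the 50% level in every HFD sample and far above it in every RD sample. In HFD offspring its mean level was 33.9% in male 3, 36.4% in female 2, 38.95% in male 4, 39.4% in female 4, 45.4% in male 2 and 45.5% in female 3. In RD offspring it was 74.7% in female 4, 77.4% in female 1, 81.0% in female 3, 85.5% in male 1, 86.9% in female 2 and 90.3% in male 2. The 2 sets of 6 values did not overlap, and 29.2 points separated HFD female 3 from RD female 4. The group levels were 39.9% ± 4.70 in HFD and 82.6% ± 5.99 in RD (SD, n = 6 each), a difference of -42.7 points.

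Set against 50%, the HFD mean lay 10.1 points below it, from 16.1 points below in male 3 to 4.53 points below in female 3. The RD mean lay 32.6 points above it, from 24.7 points above in female 4 to 40.3 points above in male 2. Of the 96 single-site values in HFD, 8 exceeded 50%, and they came from female 3 (5 sites) and male 2 (3 sites). Of the 96 values in RD, 0 were below 50%, and 13 were at 100%, which were 8 sites of male 2 and 5 of female 2. No HFD value reached 100% in the core.

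**Figure D1:**
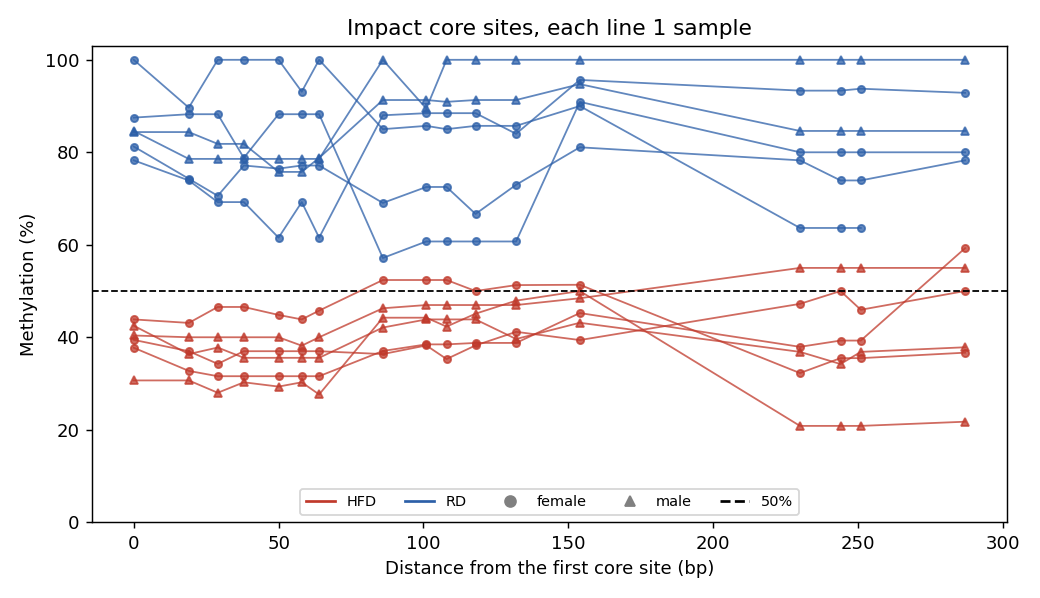
Methylation level (%) at the 16 core sites of Impact and the site after them, against distance in bp from the first core site. Each line is 1 sample, red for HFD and blue for RD, with circles for females and triangles for males, and the dashed line marks 50%. At each of these sites all red points lie below all blue points.

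Site by site, the HFD means ran from 36.1% at 12973277 to 46.3% at 12973373, and the RD means from 80.1% at 12973269 to 92.1% at 12973373. The difference was between -46.9 points at the first core site and -37.3 points at 12973320. All 16 core sites, and the site at 12973506, had every HFD value below every RD value, an ordering found at 0.335% of the 157524 autosomal sites tested, with the opposite ordering at 0.147%. That ordering belongs to the contrast for which the gene was picked, and nothing is read from the count. The margin between the highest HFD and the lowest RD value was 34.4 points at the first core site and only 4.76 points at 12973305. There HFD female 3 had 52.4% and RD female 1 had 57.1%.

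In the fit of all sites with limma, 23 of the 35 sites were included, and 4 of them, all in the core and lower in HFD, had an adjusted p-value for diet under 0.05. Of all sites tested, 0.00825% were called in that direction and 0.0102% in either. The 4 were the first core site and those at 12973238, 12973277 and 12973373, and the choice of Impact by this same contrast favoured their calls, so the count is no test of it and nothing is read from it. Leaving out RD male 1 or any of the HFD samples female 2, male 2 and male 3 gave 0 called sites. Leaving out RD male 2, or HFD female 4 or male 4, gave 1, and leaving out HFD female 3 gave 2. The difference in the core mean itself stayed between -44.3 and -41.2 points when any 1 sample was left out.

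Neighbouring core sites carried similar levels. Between neighbouring core sites the level changed by 1.94 points (median of 13 steps, each averaged over the 12 samples), except at 2 places. From 12973283 to 12973305 the average change was 13.1 points, and from 12973373 to 12973449 it was 10.7 points. Across the whole table, neighbouring sites at most 30 bp apart and with mean levels of 20 to 80% changed by a median of 9.98 points. The core was divided at these 2 places, after its values had been seen, into stretches of 7, 6 and 3 sites. Sites this close can be read from the same molecules, so the 16 sites are not 16 separate measurements of a sample.

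Each of the 3 stretches separated the diets. The first stretch (up to 12973283) averaged 36.8% ± 5.39 in HFD and 81.6% ± 9.74 in RD (SD, n = 6 each). The second (12973305 to 12973373) averaged 44.1% ± 5.04 in HFD and 83.8% ± 12.5 in RD. The third (from 12973449) averaged 38.8% ± 11.8 in HFD and 82.8% ± 12.99 in RD. Averaging the whole core narrowed the spread in RD, where the SD was 9.74 to 12.99 points over single stretches and 5.99 over all 16 sites.

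Single mice differed in which stretch was highest. RD female 2 fell by 33.9 points along the core, with 97.5% in the first stretch, 86.2% in the second and 63.6% in the third. RD female 3 ran the other way, with 69.0, 88.8 and 93.5%. RD female 1 was lowest in the middle, with 86.8, 65.2 and 80%, whereas RD female 4 was nearly level, with 76.3, 72.5 and 75.4%. RD males 1 and 2 were lowest in the first stretch, at 80.4 and 79.4%, and RD male 2 reached 100% in the third.

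In HFD, the range over the 3 stretches was 6.78 to 24.8 points. HFD male 3 had the widest, with 29.5% in the first stretch, 45.6% in the second and 20.8% in the third. HFD male 2 was the only HFD sample above 50% in the third stretch, at 55%, and HFD female 3 the only one above it in the second, at 51.6%. Over the 6 samples of a diet, Pearson's r between stretches was 0.57, 0.45 and -0.21 in HFD and -0.17, -0.72 and 0.50 in RD, for the first with the second, the first with the third and the second with the third. These are descriptions of values that share a library.

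**Figure D2:**
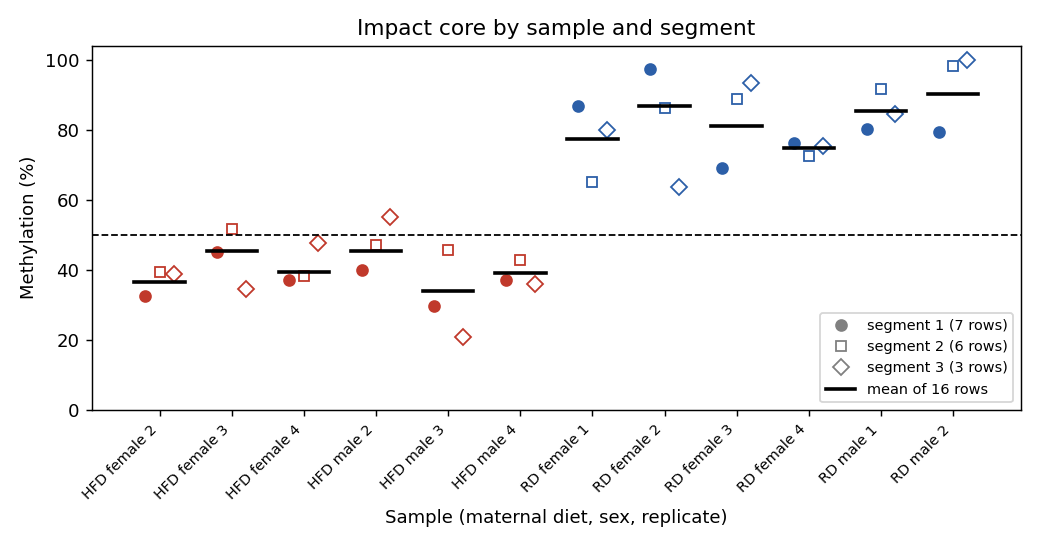
Methylation level (%) of the Impact core in each of the 12 samples. Symbols are the means of the 3 stretches of neighbouring sites, black bars the mean of all 16 sites, red HFD and blue RD, and the dashed line marks 50%. The black bars of HFD lie between 33.9 and 45.5% and those of RD between 74.7 and 90.3%, while the stretches of 1 mouse differ by up to 33.9 points.

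Many neighbouring core sites had exactly the same value in a sample. Of the 15 neighbouring pairs, 3 to 11 were equal (20 to 73.3%), fewest in HFD female 4 and RD female 4 and most in RD male 2. The comparison took the 18296 pairs of complete autosomal sites at most 30 bp apart, with mean levels of 20 to 80%. Of these, 4.31 to 7.01% were equal in a sample. The conditions differ, since core gaps reached 76 bp, and RD male 2 and RD female 2 had 8 and 5 core sites at 100%. RD male 2 had 4 distinct values over its 16 core sites, and RD female 4 had 12. The range of distinct values was 7 to 11 in HFD and 4 to 12 in RD, and its part in the difference between the diets was not tested.

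The borders of the region could not be placed. The nearest site on the left was 17361 bp before the core, at 12955858, and the nearest on the right was 16397 bp after 12973506, at 12989903. The site at 12973506, 36 bp past the core, had 43.4% ± 13.96 in HFD (SD, n = 6). Its RD level was 87.1% ± 9.14 (SD, n = 5), since RD female 2 had no value. It therefore continued the core, and including it left the difference at -42.8 points.

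Beyond these 17 sites the diets overlapped at each of the other 18 sites. Their differences were at most 6.56 points, with 4 sites lower and 14 higher in HFD. At the left end of Impact, position 12955818 had 0 to 20% in HFD and 0 to 23.1% in RD (n = 6 and 5). Position 12955858 had 0 to 10% in HFD and 0 to 6.25% in RD (n = 6 and 4). Toward the right end, the 6 sites averaged 94.5% ± 1.24 in HFD and 93.8% ± 0.890 in RD (SD, n = 6 each). Within 1 gene, then, the 2 left sites had 0 to 23.1%, the core differed between the diets, and the 6 right sites had 83.8 to 100%.

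**Figure D3:**
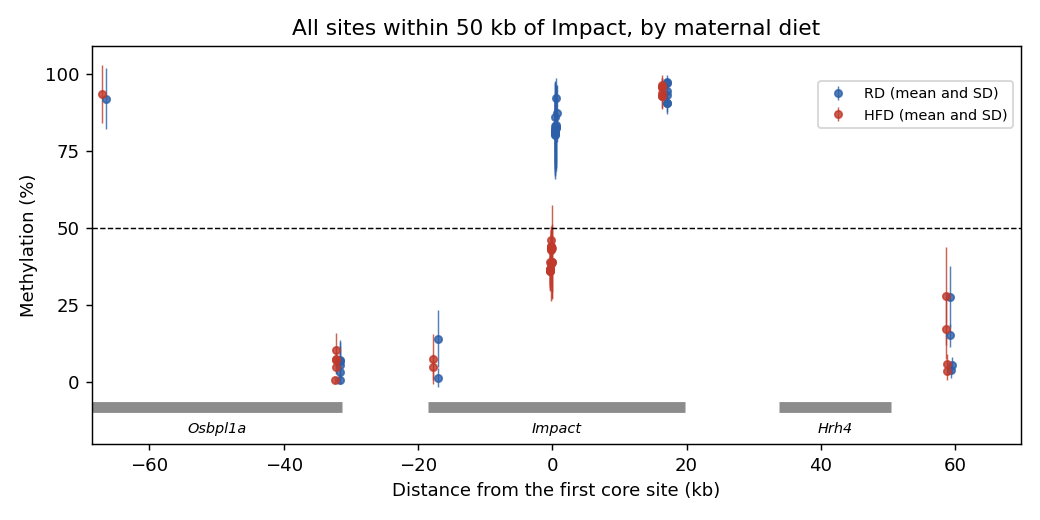
Mean methylation level (%) and SD over the samples of each diet at all 35 sites, against distance in kb from the first core site, with the points of the diets drawn slightly apart. Gray bars are the annotated genes. Red (HFD) and blue (RD) points lie at like levels at the flanking sites and apart, on both sides of the dashed line at 50%, in the core.

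Osbpl1a, which codes for an oxysterol-binding protein-related protein, lies to the left of Impact at 12753898 to 12941871. Its single interior site at 12906450 had 80 to 100% in both diets. The 5 sites from 12941250 to 12941321, within its right end, averaged 6.22% ± 2.46 in HFD and 4.78% ± 3.86 in RD (SD, n = 6 each). The highest single value there was 20.8%, in an HFD sample. Positions 12941304 and 12941305 are listed separately, and their means were 10.4 and 5.05% in HFD and 7.13 and 3.29% in RD.

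Hrh4, the gene of the histamine H4 receptor, lies to the right at 13006982 to 13023701 and held none of the sites. The 4 sites from 13032159 to 13032333 begin 8458 bp beyond it, in no annotated gene. The first had 12 to 50% in HFD and 16.7 to 42.9% in RD (n = 5 each), the widest range of the flanking sites. The last had 0 to 9.23% in HFD and 2.60 to 9.52% in RD (n = 6 each).

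Sex was not used to pick the gene, and no difference between the sexes was detected in the core. In HFD, females had 40.4% ± 4.64 and males 39.4% ± 5.73 (SD, n = 3 each). In RD, females had 80.01% ± 5.29 (n = 4) and males 87.9% ± 3.45 (n = 2). With diet held fixed, the difference of females minus males was -3.196 points, within the spread between samples (two-sided exact permutation of sex inside each diet, 300 arrangements, p = 0.337). The smallest p-value this design allows is 0.00333. The difference was between -4.99 and -1.26 points when any 1 sample was left out. The second stretch gave -9.04 points (p = 0.09 in the same exact permutation test), while the first gave 2.61 points in the other direction (p = 0.603).

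With limma, 0 of the 23 sites tested differed between the sexes, and 0% of all 157524 sites did. Before adjustment, 4 of the 23 sites had p under 0.05, all in the second stretch and all lower in females, beside 5.3% of all sites. The 4 sites, at 12973305, 12973327, 12973337 and 12973351, had limma adjusted p-values of 0.940 each. These 4 share their samples and neighbour each other. On untransformed rates, or without RD male 1 or RD male 2, the number was 0. As 1 tile of 500 bp, the core differed by -0.28 ± 0.21 (SE) between females and males on the log2 ratio scale (limma adjusted p = 0.938), and 0.0168% of all tiles passed for sex.

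The difference between the diets was -39.6 points in females and -48.5 points in males. The interaction at the core was 0.72 ± 0.39 (SE) on the log2 ratio scale, toward a smaller difference in females, with a limma adjusted p of 0.987 over the 23791 autosomal tiles of 500 bp with a mean level of 5 to 95%. On untransformed rates it was 8.88 points. When any 1 sample was left out, the estimate on the log2 ratio scale was between 0.476 and 0.967. Of all tiles, 0% passed for the interaction, and 1210 had an unadjusted p-value under 0.05. RD males numbered 2, which limits the comparison.

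Relations within each diet were computed over 6 samples, since the diets form separate clusters in the core. The core mean was set against the window of Peg13, an imprinted noncoding RNA gene, that of Zrsr1, an imprinted retrogene within Commd1, and the mean of the 60636 autosomal sites with levels of 20 to 80%. In HFD, Pearson's r was -0.24, 0.0851 and 0.10, and Spearman's rho 0.14, -0.0857 and -0.20. In RD, Pearson's r was 0.0645, 0.58 and 0.16, and Spearman's rho -0.14, 0.49 and 0.0857. Of the 6 relations 0 passed, with raw p-values of 0.226 to 0.906 for r and 0.356 to 0.919 for rho (exact permutation tests, two-sided). After Benjamini-Hochberg adjustment every r had p = 0.906 and every rho p = 0.919 (exact permutation tests). Without the 2 samples farthest from the median core level, r was 0.46, 0.0111 and -0.11 in HFD and 0.31, -0.85 and -0.54 in RD, each over 4 samples. The RD value for Zrsr1 changed sign without those samples. It was 0.78 with the median of the core sites in place of their mean (exact permutation test, unadjusted p = 0.0736).

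Among the 23791 tiles, the core of Impact had the largest absolute difference between the diets. The next had 36.2 points, and the median was 1.51. The spread of the core mean within a diet was set beside that of other tiles. The SD of the core was 4.70 points in HFD and 5.99 in RD, and the median over the 9031 tiles with levels of 20 to 80% was 4.58 in HFD and 4.56 in RD. In that range, 48.0% of tiles had a larger SD than the core in HFD and 29.7% in RD. The core mean averages 16 sites, whereas a tile needed only 3. The single stretches of the core had SDs of 5.04 to 11.8 in HFD and 9.74 to 12.99 in RD.

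Likeness to the core was measured as the mean absolute difference in level over the 12 samples, for 38446 tiles outside the 50 kb flanks. Its median was 33.5 points. The 5 genes with the closest tiles were Prorp on chromosome 12 (10.1 points), Peg13 with Trappc9 on chromosome 15 (11.1), Qsox1 on chromosome 1 (12.8), Dmrta2 on chromosome 4 (13.04) and Zrsr1 with Commd1 on chromosome 11 (13.06). Prorp codes for the nuclease of mitochondrial RNase P, Qsox1 for a sulfhydryl oxidase and Dmrta2 for a DM-domain transcription factor. Each was lower in HFD than in RD on average, from 41.5% ± 8.08 against 67.0% ± 5.93 in Prorp to 58.7% ± 4.11 against 75.5% ± 3.04 in Zrsr1 (SD, n = 6 each). The diets overlapped in Qsox1, with 40.8 to 67.0% in HFD and 59.5 to 77.1% in RD, and in Dmrta2, with 44 to 80.1% and 62 to 86.1%. The likeness is ranked on the same 12 samples and includes the difference between the diets that picked Impact, and it is a description.

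Other genes with a maternally methylated control region were examined in windows reaching 1000 bp to either side of the left and the right gene end. Whether a window covers the control region of its gene was not checked, so the counts below are of gene-end windows. Of 15 such genes 11 had a window, and 10 of 12 windows had a mean level of 5 to 95%. In HFD 7 of the 10 were lower and 3 higher, with a median difference of -10.1 points. Over all 4170 windows the median was -0.11 points, and 52.3% had the lower mean in HFD. With limma, Peg13 and Zrsr1, which made 2 of the 10, passed for diet (adjusted p = 0.00105 and 0.0120), both lower in HFD, beside 0.12% of all windows. The largest differences were those of Peg13, with 59.6% ± 4.25 in HFD and 81.6% ± 2.22 in RD, and of Plagl1, a zinc finger growth regulator, with 51.8% ± 3.94 and 67.2% ± 5.44 (SD, n = 6 each). Plagl1 did not pass (limma adjusted p = 0.147). The list was chosen with earlier results of these data known, so these counts and p-values for diet are a description.

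The 3 windows with a higher mean in HFD did not pass for diet. Gnas, which codes for the stimulatory G protein alpha subunit, had 39.6% ± 3.01 in HFD and 32.5% ± 3.47 in RD (SD, n = 6 each; limma adjusted p = 0.443). Nap1l5 had 53.3% ± 9.69 and 46.4% ± 9.33 (limma adjusted p = 0.821). In Nnat, a window of 8 sites had 54.9% ± 7.52 and 51.97% ± 6.76 (limma adjusted p = 0.917), while its window of 22 sites, counted as lower, had 52.1% ± 4.98 and 52.3% ± 5.97. These 3 genes were chosen after their values were seen. Of the genes listed as paternally methylated, H19 and Rasgrf1 had a window. H19 had 76.7% ± 2.64 and 75.5% ± 1.87, and Rasgrf1 had 7.46% ± 5.64 and 8.24% ± 4.26. These windows were also placed by gene end, without a check that they cover the control region. For sex, 0 of the 12 windows of both lists passed with limma, 0 had an unadjusted p-value under 0.05, and 0.0959% of all windows passed. The smallest limma p-values for sex among the maternally methylated genes were those of Kcnq1ot1 (0.226, adjusted 0.894) and Peg10 (0.248, adjusted 0.904). Whether Impact differed from these genes was not tested, since it was picked on this contrast.

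**Figure D4:**
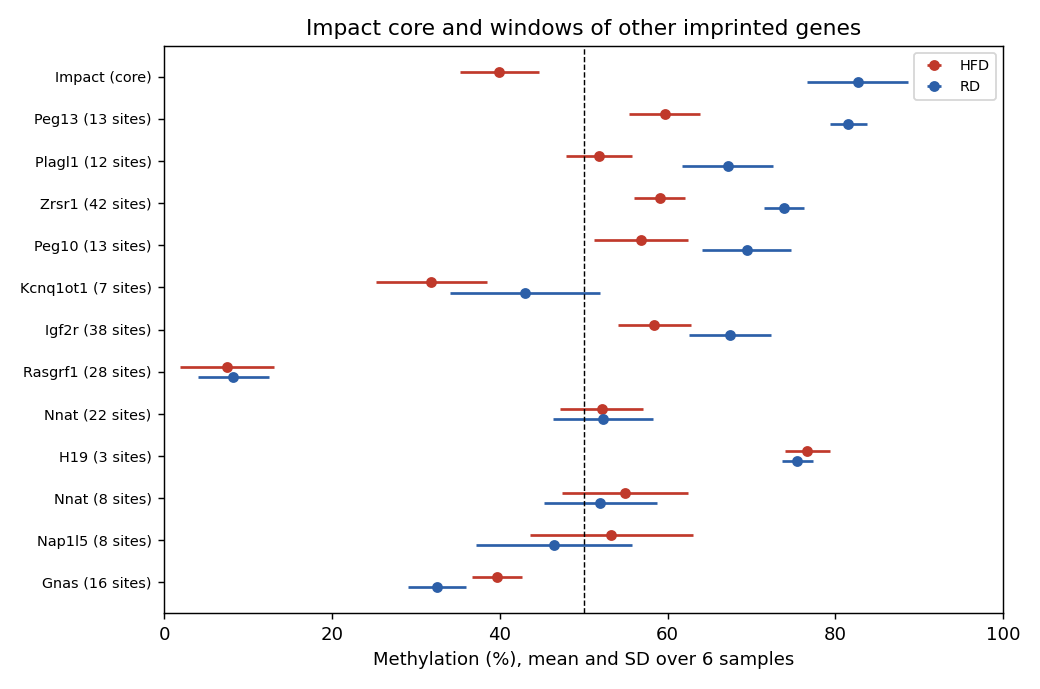
Mean methylation level (%) and SD over 6 samples per diet in the Impact core and in the windows of other imprinted genes with a mean level of 5 to 95%, ordered by the difference between the diets. The points of Impact, 39.9% for HFD and 82.6% for RD, are the farthest apart and lie on opposite sides of the dashed line at 50%.

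Genes of the amino acid starvation response, in which IMPACT acts, were examined in the same kind of windows. Of 17 genes 14 had a window, and 10 of the 15 windows had a mean level outside 5 to 95%. Of all 11524 windows, 4170 had a mean level inside that range, so nothing is read from this count. Among the 10, Eif2ak4, which codes for GCN2, had 2.18% ± 1.51 in HFD and 1.14% ± 0.701 in RD. Gcn1 had 3.85% ± 2.09 and 4.82% ± 1.31 (SD, n = 6 each). Of the 5 windows tested 0 passed for diet and 0 for sex with limma, beside 0.12% and 0.0959% of all windows. The median difference between the diets was 1.16 points, with 2 lower and 3 higher in HFD.

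The largest difference in this list was at Ppp1r15b, a subunit of the phosphatase that acts on eIF2 alpha. It had 4.21 to 8.18% in HFD and 2.75 to 45.6% in RD, with means of 5.64% ± 1.58 and 27.3% ± 15.8 (SD, n = 6 each; limma adjusted p = 0.382). The groups overlapped, and the RD samples were widely spread. Next was Atf3, a stress-induced transcription factor, with 13.4% ± 17.6 in HFD and 8.77% ± 10.6 in RD. Its limma p-value for sex was 0.0420 before adjustment and 0.728 after, and the next smallest in the list was that of Trib3, a pseudokinase (0.560 before and 0.986 after).

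Other measures were set beside the levels of Impact. The mean over autosomal sites with levels of 20 to 80% was 55.2 to 55.950% in HFD and 55.997 to 57.6% in RD, so that the ranges nearly touched, and this difference was not tested. Of the cardiomyocyte markers 4 of 5 had a window and 0 of the 3 tested passed for diet, beside 0.12% of all windows, with differences of -3.81 points in Myh6 to 1.26 points in Tnnt2. Their smallest limma p-values for sex were those of Actn2 (0.211, adjusted 0.894) and Tnnt2 (0.462, adjusted 0.974). Of the endothelial markers 1 of 5 had a window, Esam, with 15.2 to 25.2% in HFD and 28.6 to 38.9% in RD, a limma adjusted p of 0.0300 and no overlap. For sex, Esam had a limma adjusted p of 0.998. Of the 5 fibroblast markers 0 had a window. The marker lists, too, were chosen with earlier results of these data known, so nothing is read from the calls for diet. The part of these measures in the levels of Impact was not tested.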

How the data were processed

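The authors deposited 1 table of percent methylation per CpG position and sample, per the file headers. FastQC, Trim Galore, Bismark 0.19, limma and the build mm10 are named, without roles, in the submitters' processing notes. The coverage minimum is not given in the sources used here. All 12 columns matched a sample, and 0 did not. Rates as fractions were transformed to log2((rate + 0.05)/(1 − rate + 0.05)) and fitted with limma 3.58.1 (R 4.3.3), each fit holding an additive term for diet and another for sex. A site entered when it was autosomal, complete in 12 samples and with a mean of 5 to 95%, and p-values were adjusted by Benjamini-Hochberg over all of them (threshold 0.05). Tiles of 500 bp and gene-end windows needed 3 complete sites. For the interaction, each of the 4 groups had its own mean. Fits were tested on simulated data. Values were called equal within 1e-09. The sites, gene lists and tests were chosen with earlier results of these data known. The rule for named genes took Impact, its flanking genes, the 5 most alike, and per list the 2 largest diet differences and the 2 smallest p-values for sex. Gnas, Nap1l5, Nnat, Eif2ak4 and Gcn1 were named outside it, after their values were seen. Depth per sample is unknown. Figures were drawn with matplotlib 3.10.9. No sequence is printed.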

Additional observations from a re-analysis of the deposited data

Results flagged for a closer look

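The 6 samples of each diet were examined for a value standing far from the rest at each of the 35 sites and in the means of the core, its 3 stretches and 2 flanking groups. Of 82 groups of 4 to 6 values, 2 held a sample whose gap to the nearest other exceeded Dixon's 95% criterion, where chance gives about 4.1. HFD male 2 had 90.5% at position 12989903, toward the right end of Impact, and the other 5 HFD samples had 93.5 to 95.2%. RD male 1 had 6.25% at position 12955858, at the left end of Impact, where the 3 other RD samples with a value had 0. No sample stood apart by this criterion in the core or its stretches.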

How the results depend on the processing

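The difference between the diets in the core mean kept its direction under all 22 alternatives, from -48.5 points in males alone to -39.6 points in females alone. The move in males alone was larger than the SD of HFD (4.70) and smaller than that of RD (5.99). The core had no missing value and no sites 1 bp apart, so 2 of the 22 could not change it. The number of sites called for diet was not stable. Against 4 sites it was 1 with an offset of 0.01, 16 on untransformed rates, 2 without a limit on the mean level, 12 at mean levels of 20 to 80%, 2 with missing values allowed, and 0 to 6 when 1 sample was left out. The fits without a limit and at 20 to 80% were adjusted over 306534 and 60636 sites. The cause of the changes in count was not tested for any setting. With a replicate block by shared number the count was 0, with 17 sites at an unadjusted p-value under 0.05 (limma), and the block estimate of the core difference was -41.6 points. The numbers did not pair the samples. Deviations of same-numbered samples correlated at -0.03 to 0.03, and 4 of 8 samples correlated best with their own number across the diets and 1 of 10 across the sexes. For sex the block gave -1.71 points (exact permutation test over 5 pairs, p = 0.75) and for the interaction 0.69 (limma adjusted p = 0.949). The sex difference reversed, to 2.61 points, in the first stretch alone, an alternative chosen after seeing the data like the other stretches and the site past the core. For sex, 0 of the Impact sites were called under any of the 20 alternatives, with 1 site elsewhere called without HFD male 2, and the interaction at the core passed under none of its 17. Of the relations within a diet, those with Peg13 changed sign to 0.14 and 0.46 in HFD and -0.14 in RD, those with Zrsr1 to -0.0857 in HFD and -0.85 in RD, and those with the mean level to -0.20 and -0.11 in HFD and -0.54 in RD. No coverage minimum was run, since coverage values were not in hand, and the counting error of single values is unknown.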
